A study of Mus musculus with 23 samples.

Results

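The core circadian clock genes examined here were *Arntl* (the gene for BMAL1), *Clock*, *Npas2*, *Per1*, *Per2*, *Per3*, *Cry1*, *Nr1d1*, *Dbp*, and *Ciart*, 10 of the 48895 genes of the deposited table. They were taken by symbol, and all 10 were found. They were selected on their expression values in the livers, which had been seen when the list was drawn up. Their levels in liver are therefore a description and carry no test. The split of the tumors on these genes was also known then, so their spread and order in the tumors are a description too. Poly(A) RNA was sequenced from 23 tissue libraries of male BALB/c mice, aged 4 to 6 weeks when the groups were formed. The 5 control livers came from sham-operated mice (C1, C4, C5, C6, and C7). The 9 pre-metastatic livers and the 9 primary tumors came from 9 mice (M1, M2, M4, M5, M6, M7, M8, M10, and M12) whose cecal serosa had been injected with CT26 cells, a colon carcinoma line of BALB/c origin. Tissue was collected 3 weeks after injection, and the hour of collection is not given in the sources used here. A tumor and a liver with the same mouse number came from 1 animal. All tumors came from a single cell line, and the tissue was not sorted, so that fewer cells of a type and less RNA per cell cannot be told apart.

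The circadian clock is a feedback loop of transcription that runs in nearly every cell. BMAL1 pairs with CLOCK or its relative NPAS2 and switches on the *Per*, *Cry*, *Nr1d1*, *Ciart*, and *Dbp* genes through E-boxes, after which the PER and CRY proteins shut the activator down and NR1D1 (REV-ERB alpha) represses *Arntl* and *Npas2*. In mouse liver the transcripts crest in turn over the day, *Nr1d1*, *Dbp*, *Ciart*, and *Per3* ahead of *Per2*, then *Cry1*, and then the activators, and through *Dbp* and its relatives the loop drives genes of liver metabolism. Clocks in peripheral tissues take their time from the brain, feeding, and hormones.

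The sites through which these genes act on one another were looked for in promoter windows, 250 bases before to 50 bases after the RefSeq transcription start (GRCm38.p6). A window was found for 9 of the 10 genes, all but *Per2*. They had 13 windows between them, since *Clock* has 3 start sites in this set, *Arntl* and *Per1* have 2 each, and the other 6 genes have 1. Both strands were searched for the E-box CACGTG bound by the BMAL1 complexes, the D-box TTATGTAA or TTACGTAA bound by DBP, the ROR element core TAGGTCA or TGGGTCA bound by NR1D1, and the CRE TGACGTCA. Of 32851 mouse promoter windows, 7.15% held the E-box, 1.06% the D-box, 6.45% the ROR element core, and 1.79% the CRE. The E-box was found in 3 of the 13 windows, each of another gene, the D-box in 1, the ROR element core in 1, and the CRE in 0. The stretches that hold a match are shown with the matched letters in capitals, each read 5′ to 3′ along the strand of its gene.
*Ciart* (chr3:95882252-95882359, minus strand): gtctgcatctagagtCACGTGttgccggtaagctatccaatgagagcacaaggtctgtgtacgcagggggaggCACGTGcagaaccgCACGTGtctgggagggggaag
*Cry1* (chr10:85185094-85185129, minus strand): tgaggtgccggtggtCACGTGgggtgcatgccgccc
*Per1* (chr11:69098768-69098803, plus strand): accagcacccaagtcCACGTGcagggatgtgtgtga
*Per3* (chr4:151044801-151044885, minus strand): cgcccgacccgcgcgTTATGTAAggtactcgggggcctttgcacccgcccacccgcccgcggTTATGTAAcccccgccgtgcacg
*Arntl* (chr7:113207530-113207559, plus strand): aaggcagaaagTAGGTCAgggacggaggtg
The window of *Ciart*, a repressor of the BMAL1 complex, held 3 E-boxes, at positions -116, -58, and -44 from the start site, and 0.0883% of all windows held 3 or more. *Per3* held 2 D-boxes, at positions -205 and -158, and 0.0244% of all windows held 2 or more. The single E-boxes of *Cry1* and *Per1* lay at positions -60 and -166. The *Arntl* match lay at position 31, after the start of the window's transcript, in an untranslated exon of *Arntl*. The *Per1* window and the *Arntl* window surround start sites inside the deposited gene spans, and the *Per1* stretch overlapped no GENCODE exon. The stretches of *Ciart* and *Per3* lay upstream of their genes, in spans of *C920021L13Rik* and *Camta1* without an exon there. That of *Cry1* overlapped no other gene. A match is a run of letters, not a measured binding site.

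The libraries held 44587556 to 79773163 counts in pre-metastatic liver, 51064615 to 60393702 in control liver, and 47005276 to 70884436 in primary tumor. All 14 livers expressed hepatocyte markers, with *Alb* (albumin) at 15823 RPKM or more against 2.97 to 173 RPKM in the tumors. RPKM is the count of a gene scaled by its length and by the total count of the library. The tumors held little of the epithelial and colon carcinoma markers, with all 7 summing to 3.94 to 15.05 RPKM, and *Epcam* at 0.0168 to 1.88 RPKM. Leukocyte markers summed to more in the tumors (5 markers, 73.7 to 155 RPKM) than in the livers (3.07 to 22.01 RPKM). *Itgam* (median 49.8 RPKM) and *Adgre1* (23.7 RPKM) were the highest of these in the tumors. By median *Itgam*, *Adgre1*, *Ptprc*, and *Cd3e* were higher in the tumors than in either group of livers. *Cd79a* (0.492 RPKM) was not higher than in pre-metastatic liver (0.820 RPKM). The Kupffer cell marker *Clec4f* was at 0 in 5 of the 9 tumors. No pair of libraries agreed within counting error.

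Among the activators, *Arntl* fell into separate levels in the livers. It was at 3.15, 3.64, 2.98, and 3.10 RPKM in control livers C1, C4, C5, and C6 and at 0.980 RPKM in C7. In pre-metastatic liver it ranged from 0.106 RPKM (M2) through a median of 1.37 to 4.12 RPKM (M4), a 38.9-fold range. M1, M2, M10, and M12 lay at 0.106 to 0.193 RPKM, and the other 5 mice at 1.37 RPKM or more, with no pre-metastatic liver between these levels and C7 in the gap. In the tumors *Arntl* ranged only 3.96-fold, from 2.11 (M12) through 5.64 to 8.36 RPKM (M8). Each tumor held more than the liver of its own mouse, although the ranges of the groups overlapped.

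*Npas2*, which can stand in for *Clock*, followed *Arntl* in the livers and was nearly missing from the tumors. It was at 0.374, 0.722, 0.365, and 0.346 RPKM in C1, C4, C5, and C6 and at 0.0285 RPKM (7 counts) in C7. In pre-metastatic liver it ran from 0 to 1.87 RPKM with a median of 0.123, and M4 (462 counts) and M8 (333 counts) were the highest. M1 and M10 had 0 counts, M2 had 3, and M12 had 6. In the tumors it had 20 counts at most (M4, 0.0799 RPKM), and 6 of the 9 were at or under the floor of 3 counts, up to which a count was read as not above 0. At this depth a lower level than that was not detectable.

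*Clock*, the usual partner of BMAL1, varied less. Control livers held 5.23, 6.89, 6.10, 6.72, and 5.18 RPKM in C1, C4, C5, C6, and C7. Pre-metastatic livers held 1.48 (M10) through a median of 4.22 to 6.27 RPKM (M4), and the lowest 4 were again M10, M12, M1, and M2, at 2.55 RPKM or less. C7, low in *Arntl*, was the lowest control by a small margin only. The tumors, at 7.39 to 14.3 RPKM with a median of 10.03, lay above all 14 livers.

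**Figure D1:**
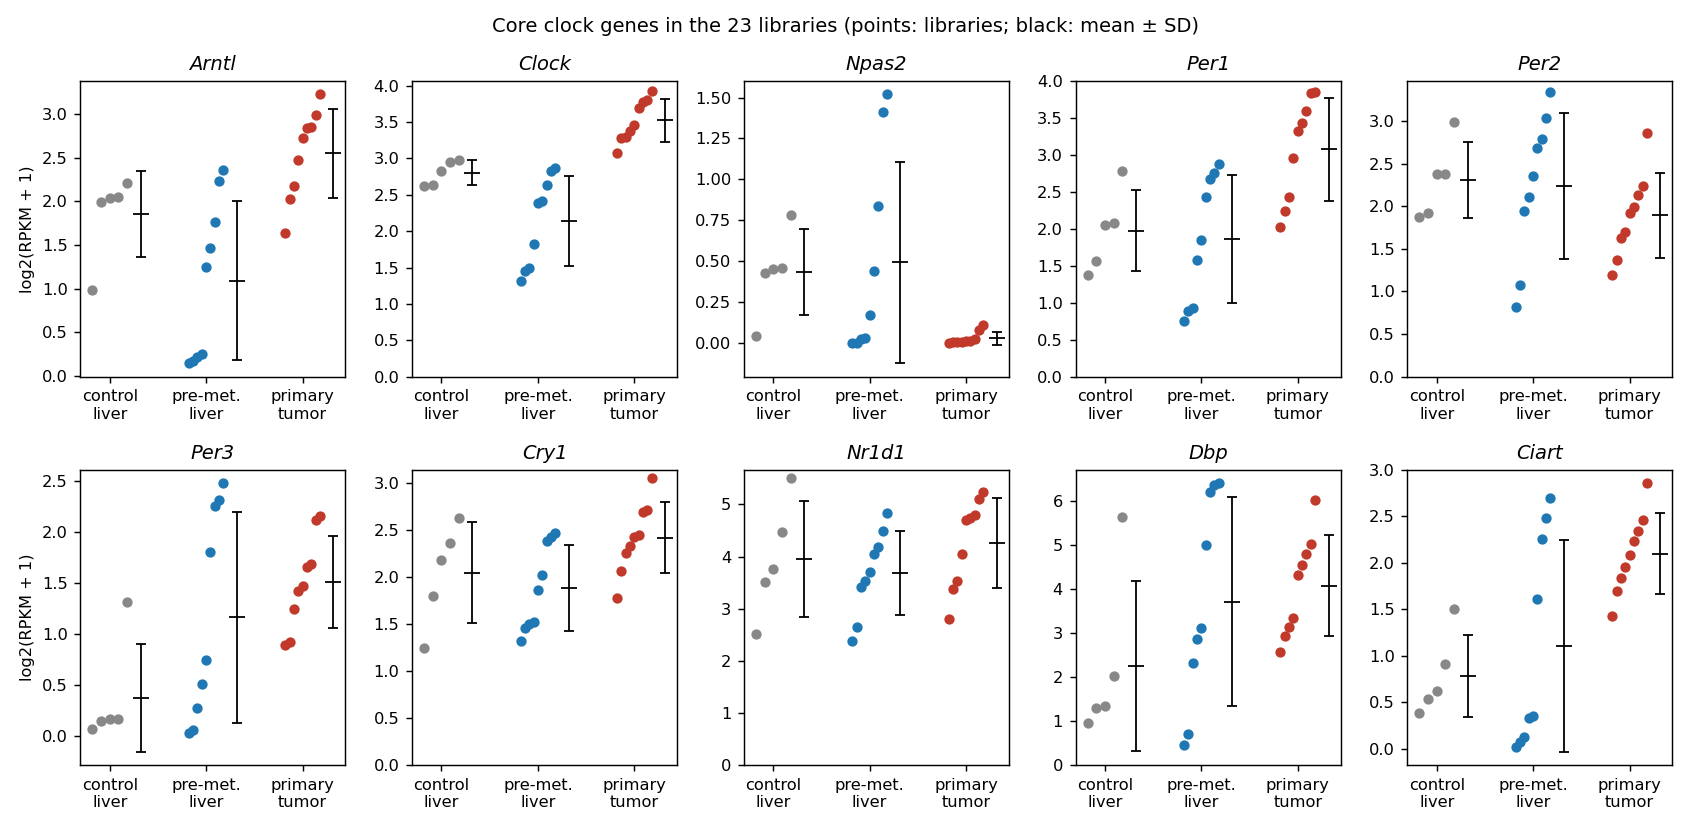
Expression of the 10 core clock genes in each library, as log2(RPKM + 1) on the vertical axis, in control liver (gray, n = 5), pre-metastatic liver (blue, n = 9), and primary tumor (red, n = 9), with points in order of value and the mean ± SD in black. *Dbp*, *Per3*, *Ciart*, and *Arntl* split the pre-metastatic livers into 4 and 5 with a gap between, *Clock* lies higher in all 9 tumors than in the 14 livers, and *Npas2* lies near 0 in the tumors.

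Among the repressors of the *Per* family, *Per3* had the widest fold range in both groups of livers, though not in the tumors. It was at 0.121, 0.0465, 0.110, and 0.123 RPKM in C1, C4, C5, and C6 and at 1.48 RPKM in C7. Pre-metastatic livers ran from 0.0203 RPKM (M8, 10 counts) through a median of 0.678 to 4.56 RPKM (M2, 2227 counts), a 224-fold range. M1, M2, M10, and M12 held 2.48 RPKM or more, and no other liver held more than the 1.48 RPKM of C7. In the tumors the range was 4.03-fold, from 0.861 (M4) through 1.77 to 3.46 RPKM (M12).

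*Per2*, a main negative arm of the loop, was at 2.67, 2.80, 4.20, 4.20, and 6.93 RPKM in C1, C4, C5, C6, and C7. In pre-metastatic liver it ranged from 0.764 (M4) through a median of 4.12 to 9.14 RPKM (M12). In the tumors it ranged from 1.29 (M5) through 2.78 to 6.28 RPKM (M12). The highest control liver was C7, the highest pre-metastatic livers were M12, M10, M2, and M1, and the 3 groups overlapped.

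*Per1* was lowest in the livers of M8, M4, and M5, at 0.686 to 0.900 RPKM, and highest in that of M1, at 6.38 RPKM. Control livers held 1.59 to 5.88 RPKM, and here C7 (1.97 RPKM) lay inside the range of the others. Tumors held 3.06 (M4) through a median of 9.03 to 13.4 RPKM (M1), each above its own liver.

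*Cry1*, whose protein represses the activator pair, had the narrowest range of the 10 genes in pre-metastatic liver. It was at 5.18, 4.15, 2.49, 3.56, and 1.38 RPKM in C1, C4, C5, C6, and C7, so that C7 was the lowest. It ranged 3.0-fold in pre-metastatic liver (1.51 to 4.53 RPKM, median 2.64) and 2.99-fold in the tumors (2.44 to 7.31 RPKM, median 4.39). It did not separate the mice as *Arntl* did, since M12 (4.37 RPKM) was among the highest livers and M1 (1.75 RPKM) and M2 (1.84 RPKM) among the lower ones.

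*Nr1d1* was at 4.70, 10.5, 12.6, 21.2, and 44.6 RPKM in C1, C4, C5, C6, and C7, with C7 the highest of the 14 livers. Pre-metastatic livers held 4.21 (M4) through a median of 12.01 to 27.5 RPKM (M2), and tumors 5.97 (M4) through 24.9 to 36.9 RPKM (M12). Among the 4 livers with the least *Arntl*, M1 and M2 were high in *Nr1d1* (21.4 and 27.5 RPKM) and M10 and M12 low (9.74 and 5.28 RPKM). The 3′ end of *Nr1d1* overlaps *Thra*, on the opposite strand, over 263 exon bases, and the strand setting of the counting is not given in the sources used here. *Thra* was at 2.40 to 7.88 RPKM in the livers and 9.70 to 17.7 RPKM in the tumors.

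*Dbp*, an output of the loop that encodes a D-box binding factor, had the largest SD of log2(RPKM + 1) of the 10 genes in each of the 3 groups. It was at 1.56, 1.45, 0.945, and 3.09 RPKM in C1, C4, C5, and C6 and at 49.1 RPKM (6805 counts) in C7. In pre-metastatic liver it ran from 0.371 RPKM (M8, 42 counts) through a median of 7.63 to 84.1 RPKM (M1, 11335 counts), a 227-fold range. M1, M2, M10, and M12 held 30.9 RPKM or more, and with C7 they formed a set of 5 livers above the widest gap on the log2(RPKM + 1) scale, while the other 9 held 7.63 RPKM or less. In the tumors *Dbp* ranged 13-fold, from 4.93 (M5) through 19.1 to 64.1 RPKM (M12), a range that lay inside that of the livers. The 3′ end of *Dbp* shares 539 exon bases with *Sphk2* on the opposite strand, and *Sphk2* was at 7.36 to 22.4 RPKM in the livers.

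*Ciart* moved with *Dbp* in the livers. It was at 0.538, 0.302, 0.446, 0.876, and 1.82 RPKM in C1, C4, C5, C6, and C7. In pre-metastatic liver it was at 2.06 RPKM or more in M1, M2, M10, and M12, with 5.50 RPKM (M10) the highest, and at 0.278 RPKM or less in the other 5, with 2 counts in M4. Tumors held 1.68 (M4) through a median of 3.24 to 6.24 RPKM (M1).

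The 5 livers high in *Dbp* overlapped the other 9 in their ranges of depth and of cell type marker sums. They held 44587556 to 64345098 counts against 44896382 to 79773163 in the other 9, hepatocyte markers summed to 37920 to 58873 RPKM against 32472 to 64915, and leukocyte markers to 5.83 to 22.01 RPKM against 3.07 to 18.8. The ranges of Kupffer cell, erythroid, and fibroblast markers overlapped as well. Whether any of these had a part in the levels of the clock genes was not tested.

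The clock genes varied more between libraries than most genes, by the SD of log2(RPKM + 1). In the 14 livers the median SD of the 10 genes was 0.80, against 0.21 for the 16987 genes tested there, and *Dbp* (2.27) passed 99.9% of them. In the 9 primary tumors the median SD was 0.48 against 0.17 for 17827 genes. There *Dbp* (1.14) passed 99.5% of genes, whereas *Npas2*, which hardly rose above 0, passed 5.37%. The genes were listed with the spread in the livers and the split of the tumors known, so the figures of both tissues describe that choice.

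The order in which the genes placed the libraries fell into opposite sets. Orders were compared by the mean difference in rank, with ranks taken within the 14 livers and within the 9 tumors. The 9537 genes with a mean of at least 1 RPKM in the livers and also in the tumors were set against *Dbp* and *Arntl* in the same way. Over the 23 libraries *Per3* differed from *Dbp* by 0.609 places, *Per2* by 1.65, *Ciart* by 2.09, *Nr1d1* by 2.35, and *Per1* by 2.43. The median gene differed from *Dbp* by 4.09 places. *Cry1*, *Npas2*, *Clock*, and *Arntl* differed from *Dbp* by 5.22 to 5.91 places, farther than the median gene. Set against *Arntl*, *Clock* differed by 1.74 places, *Npas2* by 1.83, and *Cry1* by 2.52, where the median gene differed by 3.83.

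The same sides were held in both tissues for most of the genes. In the tumors alone *Per3*, *Nr1d1*, and *Per2* differed from *Dbp* by 0.444, 0.889, and 0.889 places, with the median gene at 3.11, and *Clock* differed from *Arntl* by 1.33 places. *Nr1d1* lay closer to *Dbp* in the tumors than in the livers, where it differed by 3.29 places. *Npas2* was close to *Arntl* in the livers (1.0 place) and as far as the median gene in the tumors (3.11 places), where most of its values were at or under 3 counts. These are descriptions of shared libraries, and no test of the likeness was made.

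**Figure D2:**
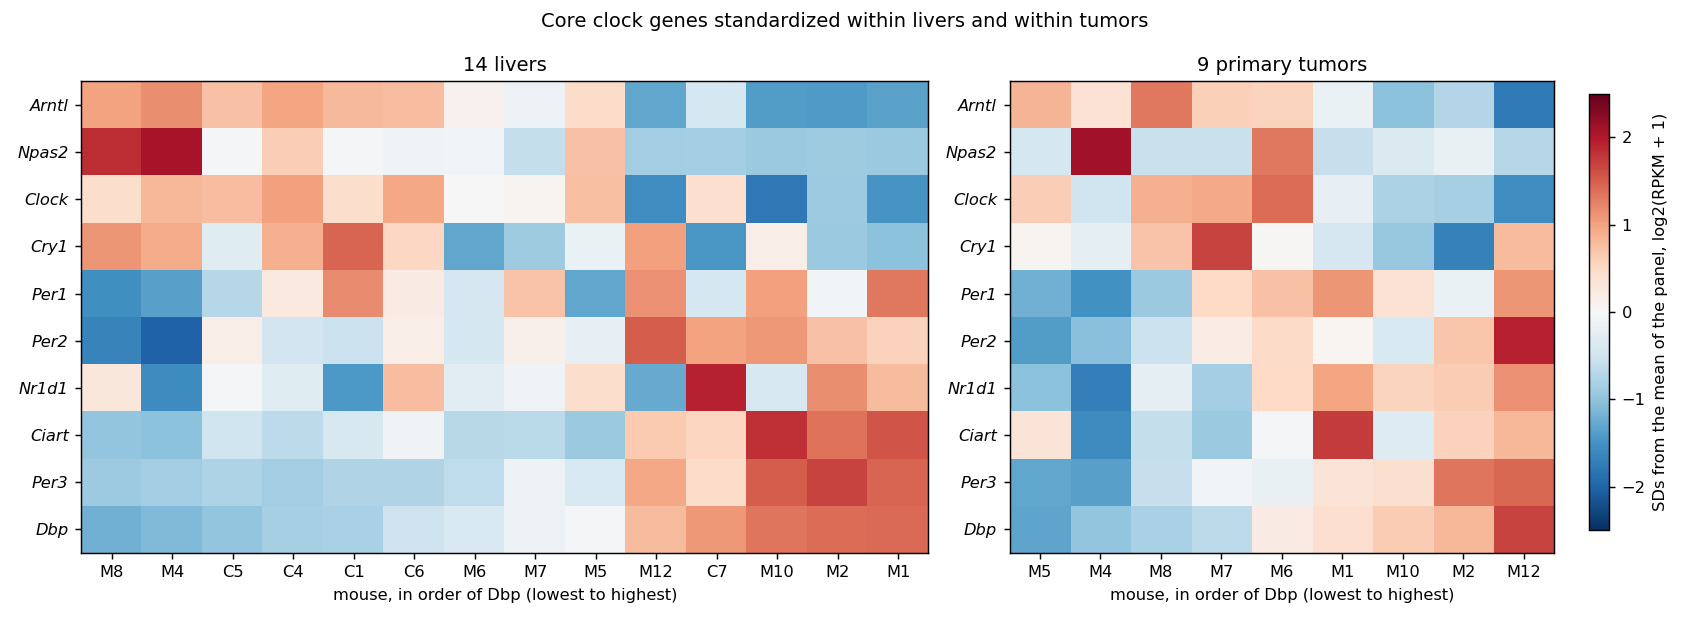
Each gene's log2(RPKM + 1) in SDs from its mean, within the 14 livers (left) and within the 9 primary tumors (right), with mice placed from lowest to highest *Dbp*. *Per3* rises with *Dbp* in both panels while *Arntl* and *Clock* fall, and the last 5 livers are M12, C7, M10, M2, and M1.

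**Figure D3:**
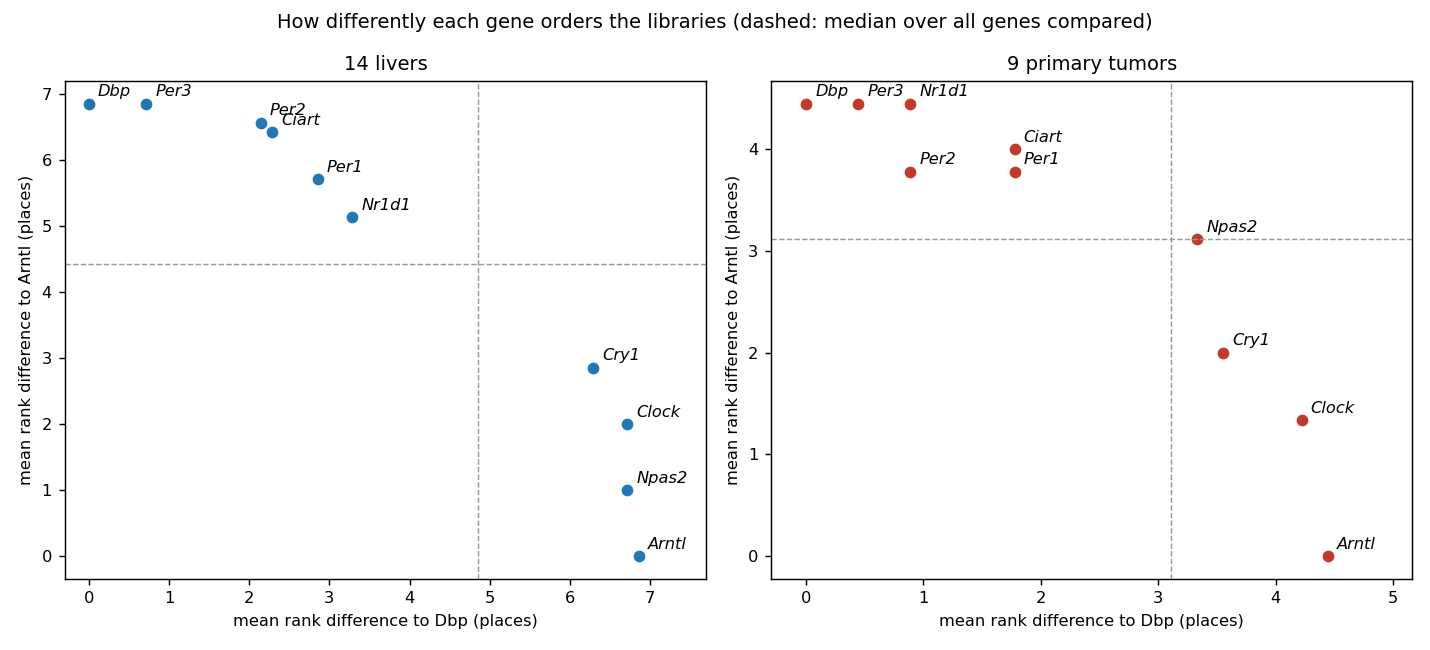
Mean rank difference of each of the 10 genes to *Dbp* (horizontal axis, places) and to *Arntl* (vertical axis, places), in the 14 livers (left) and in the 9 primary tumors (right), with dashed lines at the median of 9537 genes. In the livers *Per1*, *Per2*, *Per3*, *Ciart*, and *Nr1d1* lie on the side of *Dbp* and *Cry1*, *Clock*, and *Npas2* on that of *Arntl*, and in the tumors *Npas2* lies near both medians.

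Of the genes outside the 10, those whose order was most like that of *Dbp* were *Nr1d2* (0.609 places), which encodes REV-ERB beta, *Tef* (1.13 places), which encodes a D-box binding relative of DBP, *Rsrp1* (1.57 places), *Sphk2* (1.57 places), a sphingosine kinase gene, and *Pusl1* (1.65 places). *Nr1d2* was at 2.57 to 14.04 RPKM in control liver, 2.57 to 26.7 RPKM in pre-metastatic liver, and 6.66 to 21.2 RPKM in the tumors. *Sphk2* is the gene that shares exon bases with *Dbp*, and the part of shared reads in its order was not tested. Most like *Arntl* were *Cdkn1a* (1.22 places), the gene of the cell cycle inhibitor p21, *Asap2* (1.22 places), *Clint1* (1.48 places), the gene with the identifier ENSMUSG00000097479.1 (1.48 places), and *Clpx* (1.65 places), a subunit gene of a mitochondrial protease. *Cdkn1a* was at 3.80 to 39.3 RPKM in control liver, 0.617 to 9.98 RPKM in pre-metastatic liver, and 49.0 to 97.9 RPKM in the tumors, so an order like that of *Arntl* went with levels that differed widely between groups. When libraries were ordered by TMM-scaled CPM, the count as a share of the library total scaled by edgeR's TMM factor, 4 of the 5 genes were also named for *Dbp* and 2 of the 5 for *Arntl*.

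The liver and the tumor of a mouse were then set side by side. *Dbp* was highest in the livers of M1, M2, M10, and M12, and the 4 tumors with the most *Dbp* were those of the same 4 mice, at 22.5 to 64.1 RPKM. The other 5 tumors held 4.93 to 19.1 RPKM, and M6, at 19.1 RPKM, was close below. *Per3* gave the same 4 mice in both tissues. For *Arntl* these 4 mice had the lowest tumors (2.11 to 4.54 RPKM, against 5.64 RPKM or more in the other 5), as they had the lowest livers. The tumors of these 4 mice also held the most hepatocyte marker RNA, at 263 (M12), 141 (M10), 28.0 (M2), and 12.9 RPKM (M1) in sum. The other 5 tumors held 6.32 to 10.2 RPKM, and the pre-metastatic livers 32472 RPKM or more. Its part in the order of the tumors was not tested.

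Ranked over the 9 mice, liver and tumor differed by 1.11 places for *Per1*, 1.33 for *Per3*, 1.56 for *Dbp* and for *Arntl*, 1.78 for *Per2* and for *Ciart*, and 2.22 for *Clock*. *Npas2*, *Cry1*, and *Nr1d1* differed by 2.44 places each. The median over 9537 genes was 2.89 places. Of those genes, 0.566% differed by less than *Per1* and 26.0% by less than *Cry1*. The list was drawn up with the split of the livers and of the tumors on these genes known, so the match is a description. No test was made of whether the mice differ.

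**Figure D4:**
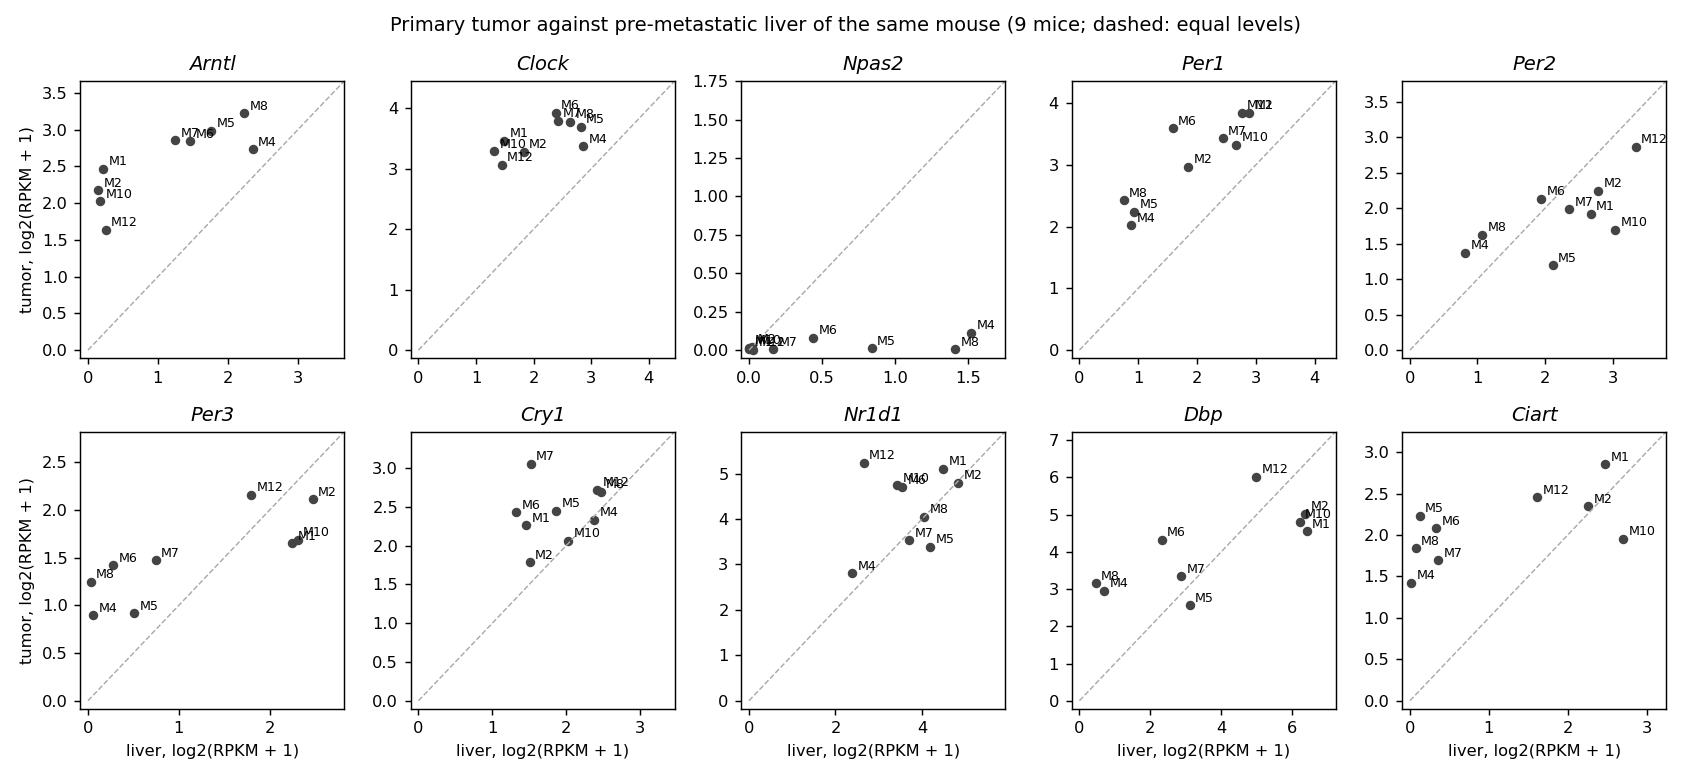
Expression in the primary tumor (vertical axis) against the pre-metastatic liver (horizontal axis) of the same mouse, both as log2(RPKM + 1), for the 10 genes, with 1 labeled point for each of the 9 mice and a dashed line at equal levels. *Arntl*, *Clock*, and *Per1* lie above the line in all 9 mice, and M1, M2, M10, and M12 lie apart from the other mice in the *Arntl*, *Per3*, and *Dbp* panels.

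Pre-metastatic and control livers were compared over all genes by edgeR's quasi-likelihood test, and 31.0% of the 16987 genes tested had an adjusted *p* under 0.05 (17.7% higher and 13.3% lower in pre-metastatic liver). All 10 clock genes entered this test and 0 passed it, and 0 had an unadjusted *p* under 0.05. This contrast was known when the list was made, so nothing is read from that count. The log2 fold changes were 2.37 ± 1.17 (SE) for *Per3*, 1.63 ± 1.26 for *Dbp*, 1.30 ± 1.06 for *Ciart*, -0.79 ± 0.76 for *Arntl*, and -0.62 ± 0.31 for *Clock*. *Npas2* (0.58 ± 1.15), *Per2* (0.21 ± 0.47), *Per1* (0.12 ± 0.55), *Cry1* (-0.16 ± 0.34), and *Nr1d1* (-0.36 ± 0.45) lay within 1 SE of 0. C7 weighed heavily on these values. Without it the fold changes rose to 4.24 ± 1.37 for *Dbp* and 4.22 ± 1.30 for *Per3*, which put those 2 of the 10 genes past the threshold. Nothing is read from that either, since the genes were listed on these values and C7 is the control liver that was high in both.

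Leukocyte markers summed to 7.33 to 22.01 RPKM in pre-metastatic liver and 3.07 to 6.53 RPKM in control liver. Fibroblast markers summed to 8.93 to 46.0 and 3.15 to 5.36 RPKM, and erythroid markers to 474 to 1025 and 179 to 401 RPKM. All 3 ranges of sums were higher in pre-metastatic liver without overlap, and their part in the values of the clock genes was not tested. By median *Ptprc*, *Itgam*, *Adgre1*, and *Cd79a* were higher in pre-metastatic liver, and *Cd3e* was lower (0.246 against 0.312 RPKM in control liver).

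Other genes of the clock were taken from lists that were also written with earlier results of these data known, so their calls are a description. Of the other genes of the core loop, 5 of 7 were tested (not *Arntl2* and *Rorb*), and 1 was higher and 0 lower in pre-metastatic liver. Of all genes tested 17.7% were higher and 13.3% lower. The median log2 fold change of the list was 0.44, against 0.01 for all genes tested. *Bhlhe40*, an E-box repressor, was at 26.9 ± 10.6 RPKM (SD, n = 9) in pre-metastatic and 12.4 ± 6.72 RPKM (SD, n = 5) in control liver and rose by 1.22 ± 0.35 on the log2 scale (edgeR adjusted *p* = 0.0162). Without C7, 3 of the 5 were higher, with *Nr1d2* (1.73 ± 0.53) and *Bhlhe41* (1.89 ± 0.67) added. Nothing is read from the added calls, since C7 is the control liver that was high in *Dbp* and *Per3*.

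Of 7 kinases and ubiquitin ligases that set the life of PER and CRY, 0 passed edgeR's test, DESeq2's test, or, with edgeR, an unadjusted *p* under 0.05. Of all 16987 genes edgeR called 31.0%, and 7108 had an unadjusted *p* under 0.05 with it. DESeq2 called 3397 of all genes higher and 2589 lower, and limma 1988 and 3068. In limma 1 of the 7 was lower, *Csnk1a1*, the casein kinase 1 alpha gene (-0.26 on log2(RPKM + 1), limma adjusted *p* = 0.0292). Of the D-box factors *Tef*, *Hlf*, and *Nfil3*, 0 of 3 passed edgeR's or DESeq2's test. An unadjusted *p* under 0.05 was reached by 0 of 3 with edgeR and by 1, *Nfil3*, with DESeq2. Of 10 genes known as outputs of the clock in liver, 0 passed with edgeR or DESeq2, and 1 had an unadjusted *p* under 0.05. *Por*, the gene of the reductase that serves the cytochrome P450 enzymes, was called lower in limma (-1.56) and by edgeR without M10 (-1.38 ± 0.46) or without M12 (-1.43 ± 0.44). Without C7, *Wee1* (2.75 ± 0.96), a kinase gene of the cell cycle, and *Cyp2a4* (3.65 ± 1.29), a cytochrome P450 gene, were called higher. For the same reason nothing is read from these calls without C7, the control liver high in *Dbp* and *Per3*.

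Tumor and liver of the 9 tumor-bearing mice were compared in the same way. This contrast was not the one the genes were listed on. Its liver values and the split of its tumors were known then, however. The *p*-values of the clock genes in it, here and below, are therefore a description. The 9 genes other than *Npas2* passed the filter on low counts. Of 17827 genes tested, 84.3% were called by edgeR, with 43.8% higher and 40.5% lower in the tumor. Of the 9 clock genes 0 were higher and 1, *Per2*, was lower (unadjusted *p* under 0.05, 0 higher and 2 lower). *Per2* fell by 1.80 ± 0.41 on the log2 scale (edgeR adjusted *p* = 0.000506) and was called lower in each of the 9 fits that left out 1 mouse. With the mouse as a block it fell by 1.59 ± 0.27 (edgeR adjusted *p* = 0.000175).

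The block changed 3 other calls, to 2 genes higher and 2 lower in the tumor (of all genes 83.7% were called with the block, 43.9% higher and 39.9% lower). *Arntl* went from 0.57 ± 0.60 (edgeR adjusted *p* = 0.380) to 1.47 ± 0.53 (0.0223 with the block), and *Clock* from 0.34 ± 0.25 (adjusted *p* = 0.216) to 0.49 ± 0.19 (0.0347). *Cry1* went from -0.54 ± 0.25 (adjusted *p* = 0.0502) to -0.48 ± 0.20 (0.0412). *Ciart* turned from -0.27 ± 0.75 to 1.23 ± 0.82 and *Per3* from -1.04 ± 0.71 to 0.066 ± 0.68, neither called in either fit. *Dbp* (-1.73 ± 0.83, adjusted *p* = 0.0589), *Nr1d1* (-0.53 ± 0.36), and *Per1* (0.15 ± 0.45) were called in neither fit either, and DESeq2, which called 84.9% of all genes, called *Dbp*, *Cry1*, and *Per2* lower.

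These directions depended on how tumor and liver were scaled. A few genes took 14.96 to 27.9% of the counts in pre-metastatic liver (the top 10 genes of each library) and 4.78 to 5.74% in the tumors. The TMM factors, which offset such a difference, were 0.592 to 0.779 in liver and 1.44 to 1.56 in tumor, so that a gene of equal RPKM came out 1.19 lower in the tumor on the log2 scale. The median gene differed by 0.09 on the TMM scale and by 0.65 in limma on log2(RPKM + 1). On the RPKM scale limma called 5 of the 9 clock genes higher and 0 lower (of all genes 89.0% were called, 68.3% higher and 20.7% lower). Those 5 were *Arntl*, *Clock*, *Per1*, *Cry1*, and *Ciart*. By sign alone, called or not, *Cry1*, *Nr1d1*, *Per3*, *Dbp*, and *Ciart* were higher in the tumor on that scale. They were lower with TMM in the fit without the block.

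On log2(RPKM + 1) within the 9 mice, *Arntl* was higher in the tumor by 1.46 ± 0.57 (SD of the differences), *Clock* by 1.39 ± 0.48, and *Per1* by 1.22 ± 0.40. Each was higher in 9 of 9 mice (exact two-sided sign-flip test, *p* = 0.00391, the smallest that 9 mice can give, unadjusted over the 10 genes). For 55.8% of all genes tested every tumor lay above every liver, so at least that share was also higher in 9 of 9 mice. On this scale limma called 68.3% of all genes higher. A rise in 9 of 9 mice was thus not particular to these genes. *Ciart* (0.99 ± 0.93, exact *p* = 0.0195) and *Cry1* (0.53 ± 0.52, exact *p* = 0.0117) were higher in 8 of 9 mice. *Npas2* differed by -0.46 ± 0.60 (exact *p* = 0.0273). Its 2 positive differences, in M1 and M10, set a liver with 0 counts against a tumor with 1 and 3 counts, not above the floor. *Per2* was higher in 3 of 9 (-0.35 ± 0.66, exact *p* = 0.152). Of the 9 genes tested only *Clock* had ranges that did not overlap, as 55.8% of all genes tested had with the tumors above the livers.

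**Figure D5:**
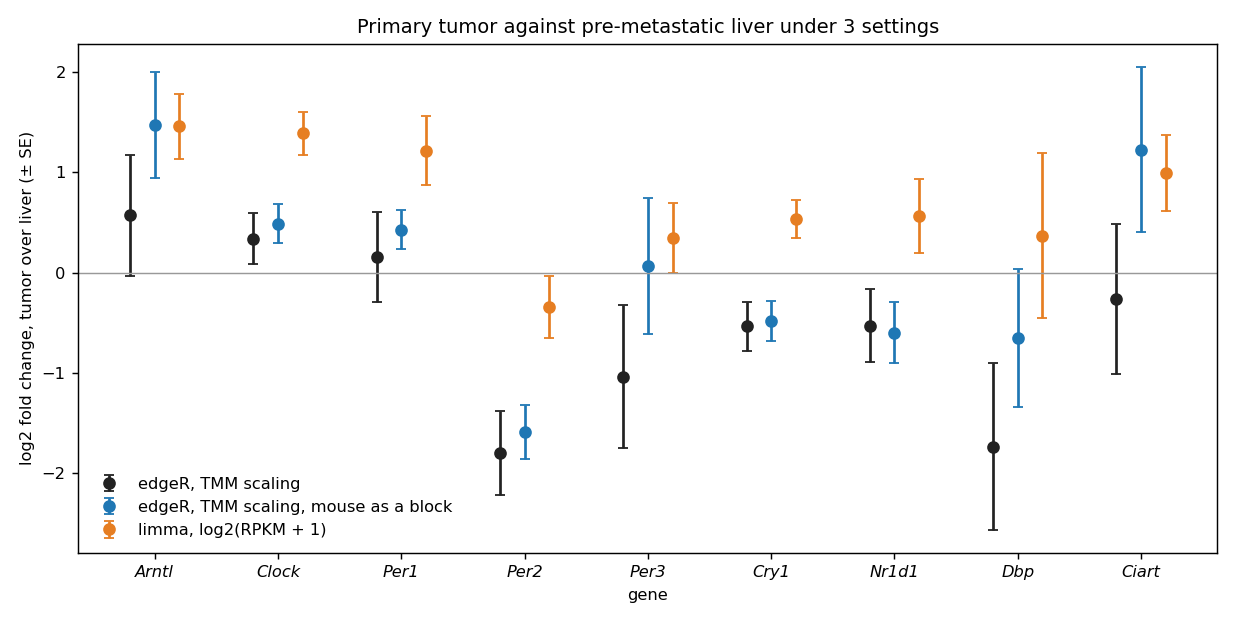
Log2 fold change ± SE of the primary tumor over the pre-metastatic liver (vertical axis) for the 9 genes tested, from edgeR with TMM scaling (black), the same fit with the mouse as a block (blue), and limma on log2(RPKM + 1) (orange), n = 9 tumors and 9 livers. *Per2* lies below 0 in all 3 settings and *Arntl*, *Clock*, and *Per1* above 0, whereas *Cry1*, *Nr1d1*, and *Dbp* lie below 0 in both edgeR fits and above 0 in limma.

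Ratios of genes within a library do not depend on the scaling. The ratio of *Per2* to *Per1*, in RPKM, was 0.208 to 0.548 in the tumors (median 0.347) and 0.846 to 3.69 in the pre-metastatic livers (median 1.43). It was lower in the tumor in all 9 mice, and the ranges did not overlap. In control liver it was 0.453 to 3.52. The ratio of *Npas2* to *Clock* was at most 0.00854 in the tumors and reached 0.318 in pre-metastatic liver. The ratio of *Arntl* to *Clock* was 0.286 to 0.656 in the tumors and 0.0414 to 0.709 in pre-metastatic liver, and it was higher in the tumor in 7 of 9 mice. These ratios were chosen after the values had been seen. Among single genes tested, RPKM ranges did not overlap for 55.8% with the tumors above the livers and for 14.5% with the tumors below. The share over other pairs of genes was not counted, so nothing particular to *Per2* and *Per1* is read from the separate ranges.

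The counts of the other clock lists in tumor against liver are a description, since the lists were written with earlier results known. Of all 17827 genes edgeR called 43.8% higher and 40.5% lower, and limma 68.3% and 20.7%. With upper-quartile scaling 8698 were higher and 6394 lower. Of the other core loop genes 6 of 7 were tested, and 2 were higher and 4 lower in the tumor. With upper-quartile scaling and in limma 2 were higher and 2 lower. *Rora* (-6.03 ± 0.22), an activator at ROR elements, was at 0.0959 ± 0.0348 RPKM (SD, n = 9) in the tumors against 2.76 ± 0.720 RPKM in the livers. *Cry2*, the relative of *Cry1*, was lower (-1.81 ± 0.24) at 4.38 ± 1.13 against 6.78 ± 3.10 RPKM. *Arntl2*, a relative of *Arntl*, was higher (3.83 ± 0.35) at 0.826 ± 0.176 against 0.0254 ± 0.0178 RPKM, and so was *Bhlhe41*, an E-box repressor (1.91 ± 0.40), at 7.85 ± 2.01 against 0.935 ± 0.771 RPKM. The edgeR adjusted *p* of these 4 genes was 0.000179 or less. The other 2 called lower, *Nr1d2* (-0.91 ± 0.38) and *Bhlhe40* (-0.70 ± 0.25), had a higher mean RPKM in the tumors. *Nr1d2* was at 14.2 against 11.9 RPKM and *Bhlhe40* at 37.7 against 26.9 RPKM.

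The D-box factors *Hlf* (-7.32 ± 0.43), *Tef* (-1.77 ± 0.49), and *Nfil3* (-1.55 ± 0.30), a repressor at the same sites, were all 3 lower, whereas limma called only *Hlf* lower. *Hlf* was at 0.109 ± 0.0909 RPKM in the tumors and 7.78 ± 2.55 RPKM in the livers. Of the kinases and ligases 2 were higher and 2 lower of 7 (43.8% and 40.5% of all genes). With upper-quartile scaling 5 were higher and 1 lower (8698 and 6394 of all 17827 genes). In limma 6 were higher and 1 lower (68.3% and 20.7% of all genes). The list was led by *Fbxl21* (-4.77 ± 0.40), a ligase gene. It was low in both tissues, at 0.0119 ± 0.0101 RPKM in the tumors against 0.149 ± 0.0608 RPKM in the livers. Next came *Csnk1e* (2.16 ± 0.13), the casein kinase 1 epsilon gene, at 12.04 ± 1.89 against 1.18 ± 0.220 RPKM. *Fbxw11* was higher (0.26 ± 0.06), and *Btrc*, the other beta-TrCP gene, was lower (-0.29 ± 0.09) but higher in limma (0.68).

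Of the liver outputs of the clock 8 of 10 were lower and 0 higher in the tumor, where edgeR called 40.5% of all genes lower and 43.8% higher. With the mouse as a block 6 were lower and 0 higher, and in limma 4 were lower and 2, *Nampt* and *Wee1*, were higher. *Cyp2a5* (-11.57 ± 1.21) and *Cyp2a4* (-11.56 ± 1.25), both cytochrome P450 genes, *Cyp7a1* (-11.37 ± 0.60), the rate-limiting enzyme of bile acid synthesis, and *Alas1* (-5.20 ± 0.55), the first enzyme of heme synthesis, led the list, and these 4 were the ones called lower in limma too. The 3 cytochrome P450 genes are expressed in hepatocytes, whose markers were low in the tumors as given above, and the part of that difference was not tested. *Alas1*, which is used by most cell types, was at 5.42 to 8.01 RPKM in the tumors. *Cyp2a5* and *Cyp2a4* are close copies of each other and may share reads, so their separate values are uncertain.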

How the data were processed

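Per the submitters' processing notes, the authors aligned reads with HISAT2 and counted them with HTSeq 0.6.0 on mm10. The annotation and strand setting are not given in the sources used here. For each of 48897 table lines the authors deposited the raw count per library and RPKM. All 46 count and RPKM columns were matched to samples by mouse number and tissue. Recomputed RPKM differed by at most 1.75e-06 of itself. Lines of 2 repeated symbols were summed.

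The 10 genes and all lists were chosen with earlier results of these data known, and 2 genes of the other lists are not reported here. From the other lists, up to 4 called genes with the largest fold change were named in each comparison, and some others where settings differed. From the order comparison, the 5 nearest genes were named. Counts were tested with edgeR 4.0.16 (TMM, quasi-likelihood, Benjamini-Hochberg adjustment over all genes, threshold 0.05). Genes needed at least 10 counts in at least 5 libraries (livers) or 9 (tumor against liver). DESeq2 1.42.0 and limma 3.58.1 were alternatives. RPKM was tested on log2(RPKM + 1). Values have counting error, and tests measure the spread between mice.

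On simulated counts, edgeR called 77 of 95 changed genes at a log2 fold change of 1 and 95 of 105 at 2 for the livers (16987 genes), and 72 of 98 and 101 of 102 for tumor against liver (17827 genes). Liver and tumor were paired by the mouse number of the labels. Deviations from the group mean correlated at 0.0729 within a mouse (-0.0550 to 0.212) and -0.00939 between mice. Figures were drawn with matplotlib 3.10.9.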

Additional observations from a re-analysis of the deposited data

Results flagged for a closer look

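Of 30 pairs of a clock gene and a group, 3 held a library far from the others of its group, all in control liver and all the library of mouse C7. By Dixon's ratio, the gap to the nearest library over the whole range of log2(RPKM + 1), C7 stood apart with 0.820 for *Arntl*, 0.918 for *Per3*, and 0.771 for *Dbp*. A ratio was flagged past the limit that chance alone passes in about 1 group in 20, where genes are not chosen on their values. These genes were listed with the liver values known, so that rate does not apply to them. The genes also move together, so the 3 are not independent. C7 held 0.980 RPKM of *Arntl*, against 2.98 RPKM or more in the other 4 control livers, and 49.1 RPKM of *Dbp*, against 3.09 RPKM or less. *Per3* was at 1.48 RPKM in C7 and at 0.123 RPKM or less in the other 4. The hour of collection is not given in the sources used here, and the cause was not tested.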

How the results depend on the processing

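In the livers, limma on log2(RPKM + 1) called 1988 genes higher and 3068 lower, against 3009 and 2261 with edgeR and TMM, and in tumor against liver 12178 and 3686 against 7800 and 7222. Higher calls were thus 39.3% against 57.1% of the calls in the livers and 76.8% against 51.9% in tumor against liver. Of the clock genes in tumor against liver, 0 were higher and 1 lower with TMM, 5 and 0 with limma, 0 and 3 with DESeq2, and 2 and 2 with the mouse as a block. Without a filter on low counts 2 were lower, *Npas2* (-5.82) being added. Leaving out 1 mouse gave 1 or 2 lower, with *Cry1* added without M1, M6, or M7 and *Dbp* without M4, M8, or M12. Between the livers, leaving out 1 library gave 0 to 2 clock genes higher, the 2 without C7, a contrast the genes were listed on. The median SD of the clock genes, 0.80 in the livers and 0.48 in the tumors, became 1.28 and 0.64 with a pseudocount of 0.1 and 1.09 and 0.61 on TMM-scaled CPM. Of the genes named with *Arntl*, 2 of 5 were also named under that scaling.

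Log2 fold changes turned in these settings, and the cause was not tested apart from the scaling given above. In tumor against liver on log2(RPKM + 1), by limma and by the sign-flip test alike, *Ciart* was 0.99, *Cry1* 0.53, *Dbp* 0.37, *Nr1d1* 0.57, and *Per3* 0.35. In limma *Btrc* was 0.68. With the replicate block by mouse, *Ciart* was 1.23 and *Per3* 0.066, and the block otherwise changed only the calls of *Arntl*, *Clock*, and *Cry1* among the clock genes. Leaving out 1 mouse took *Ciart* from -0.44 to 0.17, the latter without M10. Between the livers, where none of these genes was called, limma gave -0.11 for *Per1* and -0.070 for *Per2*. Leaving out 1 liver took *Per1* from -0.068 to 0.52, *Per2* from -0.043 to 0.45, *Cry1* from -0.36 to 0.10, and *Nr1d1* from -0.60 to 0.22. Control and tumor-bearing mice share no animals, so the livers allow no pairing. Genes near the floor of 3 counts, above all *Npas2* in the tumors, are limited by depth.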
